A study of Mus musculus with 4 samples.

Results

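The genes described here are 45 nuclear receptor genes, taken by symbol from a gene table that holds 21900 protein-coding genes in all. They were examined for summits of KAP1 chromatin binding in mouse regulatory T cells. The family was chosen by the score of 1 summit beside Rara, known from earlier results of the same data, so the Rara score is given as a description and supports nothing here. All 45 symbols were found, all on numbered chromosomes, and the genes were sorted into 17 subfamilies.

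The study mapped KAP1, the protein made from Trim28, by chromatin immunoprecipitation and sequencing (ChIP-seq). The cells were regulatory T cells of C57BL/6 mice, obtained by sorting from spleen and expanded for 2 weeks in culture, with no genetic change or treatment named. Of the 4 samples, 2 were precipitated with anti-KAP1 (Active Motif, 1Tb-A9) and 2 were inputs without antibody, which were not analysed here. The labels do not say whether the 2 KAP1 replicates came from separate mice or cultures, so differences between them may be technical. A list of binding sites does not measure expression, so neither the cell type nor the activity of any receptor gene could be checked.

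Nuclear receptors are transcription factors, most of which share a zinc finger DNA-binding domain and a ligand-binding domain. Many are switched by small lipophilic ligands such as retinoic acid, thyroid hormone, vitamin D, fatty acids, oxysterols and steroids, while others are orphans with no settled ligand. Most bind copies of the hexamer AGGTCA, often as dimers with a retinoid X receptor (RXR). In T cells, retinoic acid acting through RAR alpha favours the induction and gut homing of regulatory T cells. The glucocorticoid receptor mediates responses to corticosteroids, and the NR4A factors are induced by T cell receptor signals. KAP1 is itself a corepressor, brought to DNA by zinc finger proteins that carry a KRAB domain.

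Each KAP1 sample has its own list of peak summits, the single positions of highest enrichment. Replicate 1 has 8862 summits and replicate 2 has 79515. A summit was shared when a replicate 2 summit lay within 200 bp of a replicate 1 summit, which held for 7720 sites, and its position is that of replicate 1. Each summit carries a score from the authors' peak caller, on a −log10 scale, from either the p-value or the q-value. Scores rank summits within a list and are not a measure of change between lists. The read depth is unknown. The median score was 7.25 in replicate 1 and 8.39 in replicate 2. All coordinates are mm10.

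In the RefSeq promoter table of GRCm38.p6, which has the coordinates of mm10, 41 of the 45 genes had an entry, with 62 starts among them. A window of 300 bases, from 250 before to 50 after a start, held a summit at 3 of the 62 starts. They are the inner start of Rarg, which carried the only shared summit in such a window, and starts of Esr1 and Rora with a replicate 2 summit. The share of all promoter windows with a summit was not counted, so nothing is read from this number. For Rarg (chr15:102246526-102246555, minus strand) and Rora (chr9:68653611-68653640, plus strand) the window lies inside the gene, and 30 bases are shown with the summit base in capitals. The Rarg summit is that of replicate 1, 40 bases before the start, and the Rora summit lies 160 bases before the start. For Esr1 (chr10:4611739-4611988, plus strand) the 250 bases up to the start are shown, with capitals for the 21 bases centred on the summit, 225 bases before the start. Each is written 5′ to 3′ along the strand of the gene.
Rarg: ctctgctcatcttggTgcccggcccctttc
Rora: cggccgcacacgcgtCcaccgccactcgcg
Esr1: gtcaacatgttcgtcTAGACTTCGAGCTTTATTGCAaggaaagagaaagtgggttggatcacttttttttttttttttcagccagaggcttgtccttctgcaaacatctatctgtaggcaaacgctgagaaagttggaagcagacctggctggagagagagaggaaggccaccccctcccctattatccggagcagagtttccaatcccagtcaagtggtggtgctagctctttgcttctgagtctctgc

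None of these 3 windows of 300 bases held the letters AGGTCA on either strand. Among all 32851 promoter windows the hexamer occurred in 16.3%, and among the 62 windows of receptor genes in 11 (17.7%). These 11 included 1 of the 4 starts of Rara and the outer start of Rarg. The NR4A element AAAGGTCA, which contains the hexamer, occurred in 2 of the 62 windows (3.23%), against 1.51% of all windows. The 5-base-spaced direct repeat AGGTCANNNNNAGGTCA, a classical retinoic acid response element, occurred in none of the 62 and in 0.00913% of all windows. A match is a description of letters and not of binding. Receptor promoters had a median GC content of 58.8%, against 52.7% for all promoters.

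Shared KAP1 summits were found in or near a minority of the receptor genes, and at the ends of only a few. At an end, which means within 1 kb of the lowest or highest coordinate of the gene, 4 of the 45 had a shared summit (8.89%), against 8.56% of all coding genes. These were Rara, Ppard, Nr1h3 and Nr2c1. In the body, the rest of the gene, 9 of 45 had one (20%), against 12.4% of coding genes. Within 20 kb, gene included, 21 of 45 had one (46.7%), against 32.7%. The end share was close to that of coding genes, while the body and 20 kb shares were higher. The counts fell under stricter lists. With scores at or above the median of each list, 5 genes had a shared body summit (11.1%, against 7.71%) and 14 one within 20 kb (31.1%, against 22%). With replicate 2 reduced to its 8862 highest scores, 7 had a shared body summit (15.6%, against 6.12%) and 12 one within 20 kb (26.7%, against 18%).

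Receptor genes are long, with a median of 49.7 kb against 17.1 kb for all coding genes, and longer genes offer more room for a summit. Among the 12 receptor genes under 20 kb, none had a shared body summit, against 5.06% of coding genes of that length, and 5 had one within 20 kb (41.7%, against 28.6%). Among the 20 genes of 20 to 100 kb, 6 had a shared body summit (30%, against 17%) and 12 had one within 20 kb (60.0%, against 38.2%). Among the 13 genes of 100 kb and over, 3 had a shared body summit (23.1%, against 26.2%) and 4 had one within 20 kb (30.8%, against 35.9%). Body shares were thus above those of genes of like length at 20 to 100 kb alone, and 20 kb shares were above them in both shorter classes, but not among the longest genes. No test was made of these counts, because the genes were chosen with results known.

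The replicates gave very different counts. With all replicate 1 summits, 5 of the 45 genes had one at an end (11.1%, against 9.42% of coding genes), 9 in the body (20%, against 13.3%) and 21 within 20 kb (46.7%, against 34.3%). With all replicate 2 summits, 14 had one at an end (31.1%, against 22.2%), 33 in the body (73.3%, against 54.4%) and all 45 within 20 kb, against 80.9%. Gene length was not taken into account in these shares. Per 100 kb of body, the median of replicate 2 summits was 4.57 at 20 to 100 kb, against 4.14 for coding genes. It was 3.15 against 3.16 at 100 kb and over, and 0 for both under 20 kb. Replicate 2 placed between 1 and 31 summits within 20 kb of a receptor gene, with a median of 5.

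**Figure D1:**
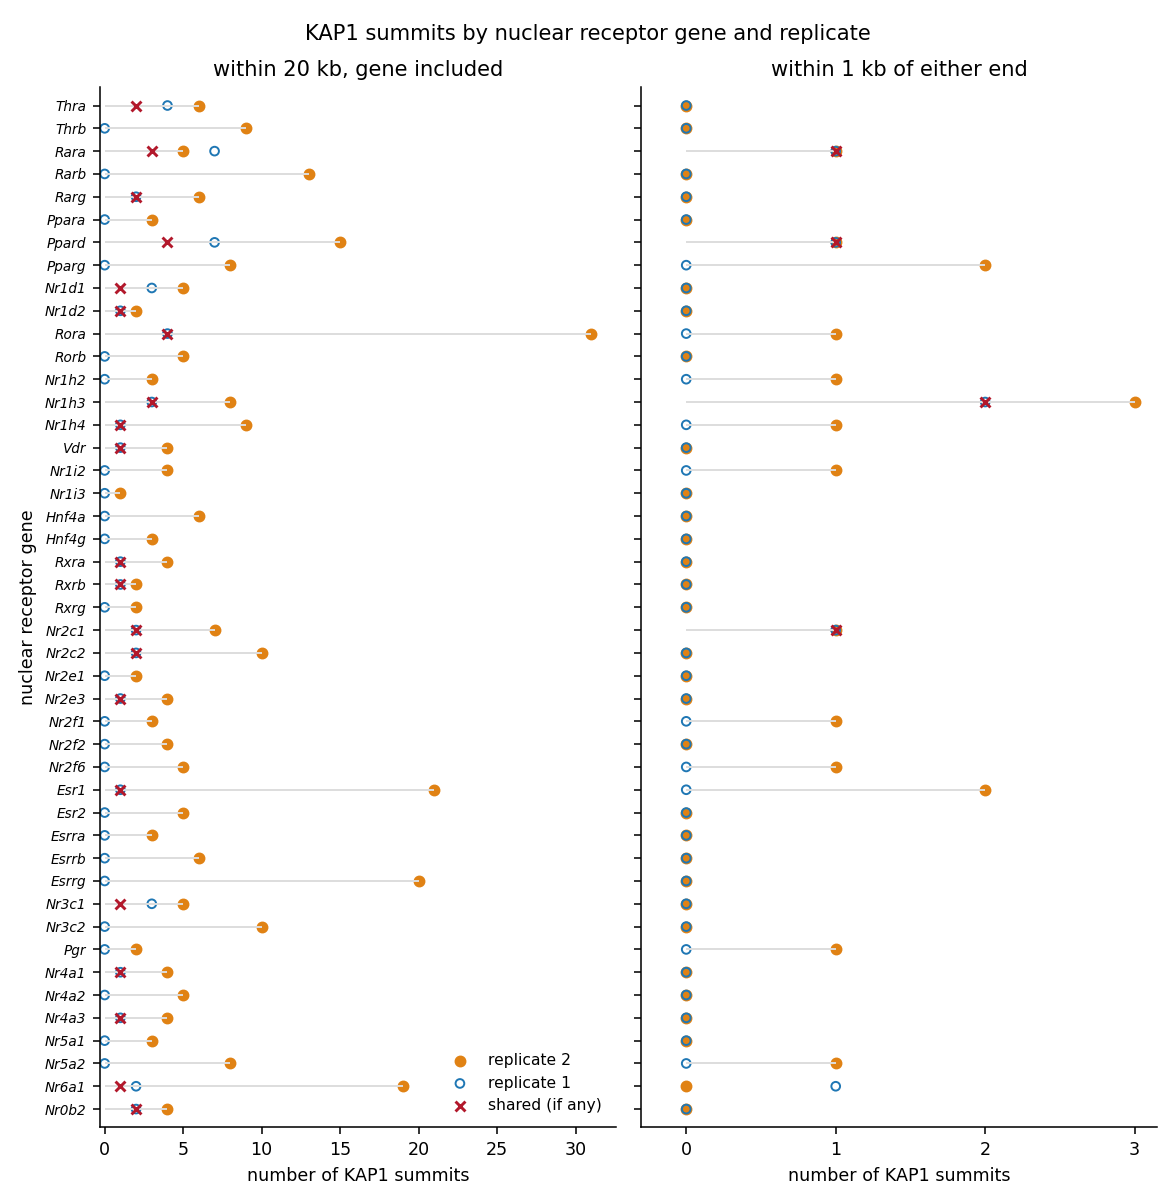
Number of KAP1 summits per nuclear receptor gene within 20 kb (left, gene included) and within 1 kb of either end (right), for replicate 2 (filled orange), replicate 1 (open blue) and, where there is one, shared summits (red crosses). All 45 genes have at least 1 replicate 2 summit within 20 kb, and 21 have a shared one.

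In all, 47 distinct replicate 1 summits and 302 distinct replicate 2 summits lay within 20 kb of the 45 genes. Of the 47, 35 were shared. The 12 unshared summits make up 25.5%, against 12.9% of all replicate 1 summits. They lay by 6 genes, Rara, Ppard, Nr3c1, Nr6a1 and the overlapping pair Thra and Nr1d1. Rara had 7 replicate 1 summits within 20 kb, of which only 3 were shared, and the 25.5% was not recounted without it. Replicate 1 scores take repeated low values, the most frequent being 5.10 in 1188 summits, of which 26.3% were unshared. Of the 9 receptor summits with that score, 6 were unshared, and these were 6 of the 12 unshared receptor summits. The median score of the 35 shared summits was 7.64 in replicate 1, against 8.34 for all shared summits, and 14.9 in replicate 2, against 12.4. In the upper 10% of both lists stood 7 of the 35, among them the Rara end summit that led to the choice of the family. Without the summits of Rara it was 5 of 32 (15.6%), against 11.4% of all shared summits. For 15 of the 35 the nearest coding gene end was that of another gene, so nearness to a receptor gene does not assign a summit to it.

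The retinoic acid receptors stood apart from one another. Rara, which encodes RAR alpha, lies on the plus strand at positions 98927800 to 98974942 of chromosome 11. Its end summit had a score of 95.9 in replicate 1, ranking 8th of that list, and 95.7 in replicate 2, ranking 46th. Both lists placed it on the same base, position 98975562, which is 620 bp beyond the end where transcription stops. It was the 9th highest of all 7720 shared summits by the mean of its 2 percentiles, and Rara was 1 of 4 coding genes with an end summit at that height or above, of 1875 with a shared end summit. The summit lay in no annotated gene. The nearest other coding gene was Gjd3, a connexin gene, at 4385 bp, and Top2a, the topoisomerase II alpha gene, had its nearer end 17385 bp away.

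The 32 shared summits of the other receptor genes scored between 1.48 and 53.3 in replicate 1, with a median of 7.26, and between 3.79 and 72.4 in replicate 2, with a median of 12.5. The Rara summit was above the highest of these in both lists, and it was the value that led to the choice of this family.

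**Figure D2:**
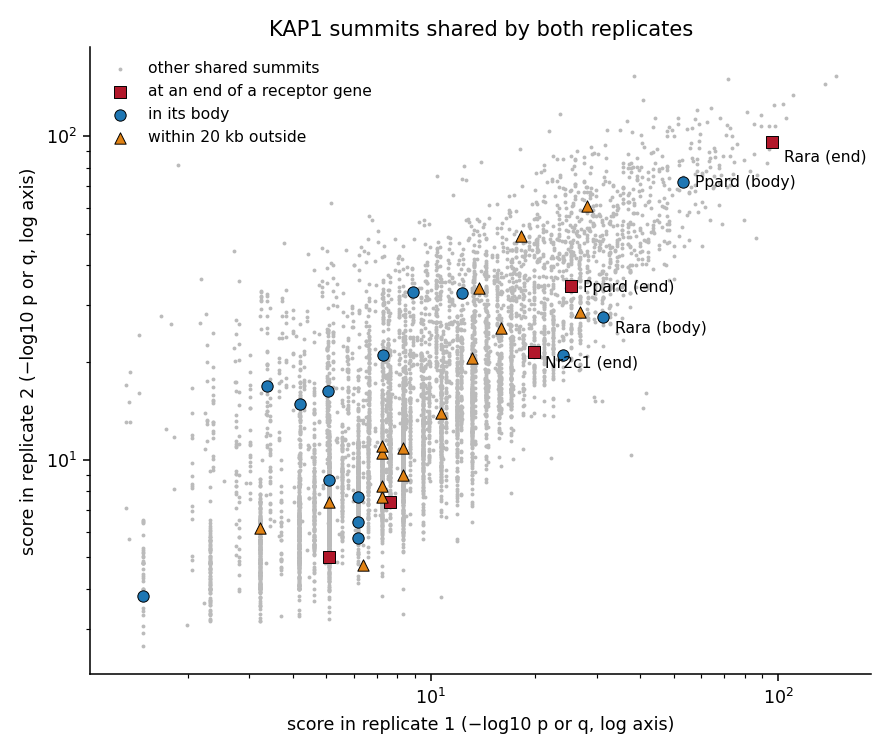
Score in replicate 1 (x axis) and replicate 2 (y axis), both log axes of the −log10 p or q value, for all 7720 shared summits (grey) and the 35 within 20 kb of a nuclear receptor gene (red squares at an end, blue circles in the body, orange triangles outside). The Rara end summit, at 95.9 and 95.7, lies above all other receptor summits on both axes.

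Rara had further summits. A shared body summit lay at position 98945271, 17471 bp inside the starting end and 5560 bp after one of its 4 RefSeq starts, with scores of 31.3 and 27.6. The nearest coding gene end to it, at 3025 bp, was that of Gm46294, a coding gene that lies within Rara. A shared summit 11176 bp before the gene scored 15.9 and 25.5, and it lay within Cdc6, a replication licensing gene. Replicate 1 also placed 4 unshared summits in the Rara body, with scores from 2.31 to 5.10 and the nearest replicate 2 summit 1149 to 3414 bp away. The one that scored 2.31 lay inside Gm46294 as well. With 7 replicate 1 summits and 5 replicate 2 summits within 20 kb, Rara was the 1 receptor gene with more in the shorter list, which was so for 84 of the 21900 coding genes (0.384%). Beyond the end summit, replicate 1 had no further summit for 64311 bp, while replicate 2 had one at 13750 bp with a score of 14.4.

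**Figure D3:**
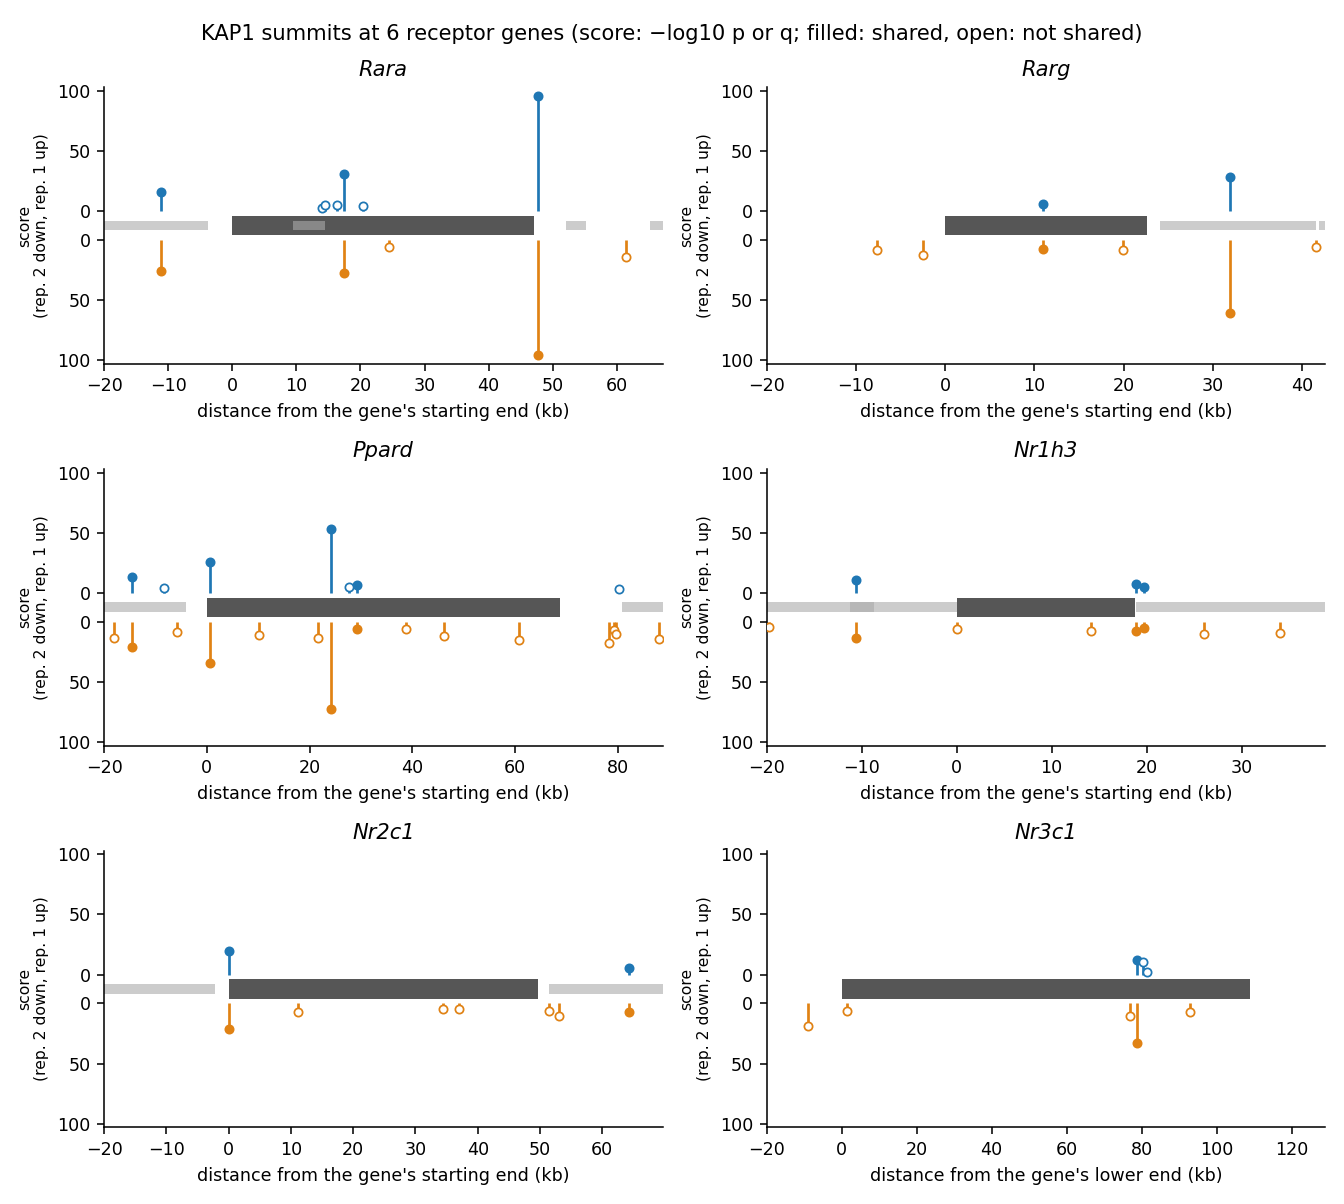
KAP1 summits within 20 kb of 6 receptor genes, drawn along the direction of transcription (for Nr3c1, whose strand was not in the table, along the chromosome) in kb from the gene's first end, with scores (−log10 p or q) upward for replicate 1 (blue) and downward for replicate 2 (orange). Filled circles are shared and open circles unshared, dark bars are the named gene and pale bars other coding genes. The tallest pair, 95.9 and 95.7, stands just past the end of Rara.

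Rarg, the RAR gamma gene, had a shared body summit at position 102246540 of chromosome 15, with scores of 6.16 and 7.67. Both are below the median of their lists. It is the summit in the inner promoter sequence printed above, 40 bases before that start in replicate 1 and 54 bases before it in replicate 2. A stronger shared summit, at 28.1 and 60.7, lay 9395 bp beyond the stopping end of Rarg and inside Itgb7, which encodes the integrin beta 7 chain used in gut homing. Rarb, the RAR beta gene, spans 651.5 kb and had no replicate 1 summit within 20 kb. Replicate 2 had 11 in its body, the highest at a score of 23.9. Rara thus had a very strong end summit and further shared ones. Rarg had a weak inner promoter summit and a stronger shared one outside the gene, and Rarb had no shared summit within 20 kb.

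The thyroid hormone receptor genes had no shared summit in the gene. Replicate 2 alone placed 2 in the body of Thra, with scores of 8.88 and 17.7. Thra overlaps Nr1d1 at its end, so their surroundings are partly the same. The nearest shared summit to Thra lay 6536 bp outside it with scores of 7.25 and 7.70, nearer to Med24, a Mediator subunit gene. Another, with scores of 6.38 and 4.75, lay within 20 kb of both Thra and Nr1d1, nearer to Msl1. Thrb, of 380.9 kb, had 8 replicate 2 body summits and no replicate 1 summit within 20 kb.

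Among the PPAR genes, which encode fatty acid sensors, only Ppard had shared summits within 20 kb, gene included. Ppard encodes PPAR delta and lies on the plus strand at positions 28232754 to 28301469 of chromosome 17. Its end summit at position 28233361 lay 607 bp after the start, with scores of 25.3 and 34.3. A body summit at position 28256960, 24206 bp after the start, was the second highest of all receptor summits at 53.3 and 72.4. A weaker body summit followed at position 28262034 with 6.16 and 5.72. Before the gene, a shared summit within Def6, a gene of T cell receptor signalling, scored 13.2 and 20.7 at 14632 bp. Ppard had 15 replicate 2 summits within 20 kb, and 7 of them in its body. Ppara and Pparg had no replicate 1 summit within 20 kb. Replicate 2 placed 2 summits at the starting end of Pparg, at scores of 14.2 and 7.07, and none at the ends of Ppara.

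Rora encodes ROR alpha, a constitutive activator that shares response elements with the Rev-erb repressors. It is the longest receptor gene, at 734.8 kb, and held 4 shared body summits, the most of any of the 45. At position 69034682 of chromosome 9 the scores were 23.9 and 21.02. The other 3 lay within 90353 bp of the stopping end, at positions 69297893, 69336257 and 69346537, with replicate 1 scores of 5.05, 1.48 and 8.87 and replicate 2 scores of 16.3, 3.79 and 32.9. The middle one stood at percentile 0.463 of replicate 1 and 0.763 of replicate 2, near the bottom of both lists. The promoter summit of Rora printed above was in replicate 2 alone, with a score of 6.07. Rorb had 3 replicate 2 body summits and none shared. The Rev-erb genes Nr1d1 and Nr1d2 held none inside the gene or at its ends, even in replicate 2. A shared summit 17130 bp beyond the stopping end of Nr1d2 scored 18.1 and 49.1, with no other coding gene nearer.

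Nr1h3, the gene of the oxysterol receptor LXR alpha, had 2 shared end summits. They lay 89 and 912 bp beyond its stopping end, at positions 91183972 and 91183149 of chromosome 2. The first scored 7.64 and 7.40 and the second 5.10 and 5.02. Of these 4 values only 7.64 was above the median of its list. Both summits lay inside Madd, whose end is nearer, and the second was 102 bp before a RefSeq start of Madd. Another shared summit, 10618 bp before the starting end of Nr1h3, scored 10.7 and 13.9 and lay where Acp2 and Ddb2 overlap. Nr1h2, the LXR beta gene, had no replicate 1 summit within 20 kb. Its replicate 2 summit 569 bp before the starting end scored 31.1, the highest of all replicate 2 summits near the receptor genes that had no partner. Nr1h4, the gene of the bile acid receptor FXR, had a shared body summit with scores of 5.10 and 8.66 at position 89521965 of chromosome 10.

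Vdr, the vitamin D receptor gene, had a single shared summit 17579 bp beyond its stopping end, with scores of 8.34 and 8.96, nearer to the histone deacetylase gene Hdac7. The xenobiotic receptor genes Nr1i2 (PXR) and Nr1i3 (CAR) had none. Among the RXR genes, which encode the common dimer partners, Rxra had a shared body summit at position 27735932 of chromosome 2. Both lists placed it on the same base, at 4.19 in replicate 1 and 14.9 in replicate 2. Rxrb had one 9166 bp beyond its stopping end (7.22 and 10.5), inside the collagen gene Col11a2, and Rxrg had none.

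Nr2c1 and Nr2c2 encode the orphan receptors TR2 and TR4, which repress genes through direct repeats. Nr2c1 had the shared summit closest to a receptor gene's end, 46 bp inside its starting end at position 94147588 of chromosome 10. The scores were 19.8 and 21.6, and the nearest RefSeq start in the promoter table lay 343 bases after it, so it fell outside the 300-base window. Another, 14595 bp beyond the gene and inside Ndufa12, scored 5.10 and 7.40. Nr2c2 had 2 shared body summits, at positions 92101243 and 92132508 of chromosome 6. The first scored 3.38 and 16.9 and the second 6.16 and 6.42. Nr2c2 had 9 replicate 2 body summits, or 11.3 per 100 kb.

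Of the steroid receptors, Nr3c1 alone held a shared summit in the gene. Nr3c1 encodes the glucocorticoid receptor, and the summit lay 30245 bp inside its higher end at position 39489176 of chromosome 18, with scores of 12.3 and 32.8. Replicate 1 had 2 more summits in the gene, at scores of 10.5 and 2.31, with the nearest replicate 2 summit 1802 and 2751 bp away. Nr3c2, the mineralocorticoid receptor gene, and Pgr, the progesterone receptor gene, had no shared summit within 20 kb. Esr1, the estrogen receptor alpha gene, had a shared summit 13564 bp before its start with scores of 13.7 and 34.1. Replicate 2 alone placed 2 at its starting end, the one 225 bp before the start printed above (12.6) and one 771 bp after it (28.0). Esr2 had no shared summit within 20 kb.

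The NR4A genes respond early to T cell receptor signals, and none had a shared summit at an end or in the body. Nr4a3 had one 1505 bp before its starting end, with scores of 7.25 and 11.1. The Nr4a1 summit lay 9163 bp beyond the gene and 343 bp from Atg101, with scores of 3.21 and 6.17. Nr4a2 had a replicate 2 body summit of 20.3 and no replicate 1 summit within 20 kb. Nr6a1, the gene of the germ cell nuclear factor, had a shared body summit with scores of 7.27 and 21.1 at position 38797282 of chromosome 2. It also had the 1 end summit found in replicate 1 alone, 916 bp outside its starting end, at 5.10. Nr2e3, a photoreceptor factor gene, had a shared summit 1772 bp beyond its stopping end (8.34 and 10.9). It lay inside the noncoding gene Gm20275, 39 bp after a RefSeq start of that gene. Nr0b2, the gene of the corepressor SHP, had 2, at 7985 bp (7.25 and 8.31) and 17536 bp (26.8 and 28.7), the latter 523 bp from Gpatch3.

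At the edges of the windows, the farthest end summits counted were those of Nr1h3 (its second, at 912 bp) and Rara, and the nearest not counted was that of Nr4a3 at 1505 bp. For the 20 kb window, the shared summit of Vdr at 17579 bp was the farthest to bring in a gene, and that of Hnf4a at 24854 bp was the nearest left out.

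No shared summit lay within 20 kb of the other 24 genes. They were Thrb, Rarb, Ppara, Pparg, Rorb, Nr1h2, Nr1i2, Nr1i3, Hnf4a, Hnf4g, Rxrg, Nr2e1, Nr2f1, Nr2f2, Nr2f6, Esr2, Esrra, Esrrb, Esrrg, Nr3c2, Pgr, Nr4a2, Nr5a1 and Nr5a2. Of the 17 subfamilies, 4 had none at all. These were the HNF4 genes, the COUP-TF genes with Nr2f6, the estrogen-related receptor genes and the NR5A genes. The highest replicate 2 score within 20 kb of these 24 genes ranged from 7.40 at Pgr to 31.1 at Nr1h2, with a median of 11.7. A summit at an end in replicate 2 without a shared one was found for 10 of the 45 genes (22.2%), against 13.7% of coding genes. They were Pparg, Rora, Nr1h2, Nr1h4, Nr1i2, Nr2f1, Nr2f6, Esr1, Pgr and Nr5a2. The 3 with the highest scores were Nr1h2 at 31.1, Esr1 at 28.0 and Nr2f6 at 21.3.

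The end summits could be placed by the direction of transcription for the 41 receptor genes with a strand. A shared summit lay at the starting end of 2 of them, Ppard and Nr2c1 (4.88%), against 7.44% of 17492 coding genes with a strand. It lay at the stopping end of 2, Rara and Nr1h3 (4.88%), against 1.25%. With 2 genes on each side, and Rara known beforehand, nothing is read from this split.

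Long receptor genes differed in how many replicate 2 summits they held. Over the 13 genes of 100 kb and over, the median was 3.15 replicate 2 body summits per 100 kb, against 3.16 for coding genes of that length. Nr6a1 was the highest of the 13 with 17 in 203.1 kb, or 8.45 per 100 kb, and Pparg the lowest with 1.57. Esrrg, with 20 in 606.4 kb, and Esr1, with 17 in 393.6 kb, held no shared body summit, whereas Rora, with 29, held 4. In all, 10 of the 13 held none. The other 3 (23.1%) had a shared body summit, against 26.2% of coding genes of that length.

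**Figure D4:**
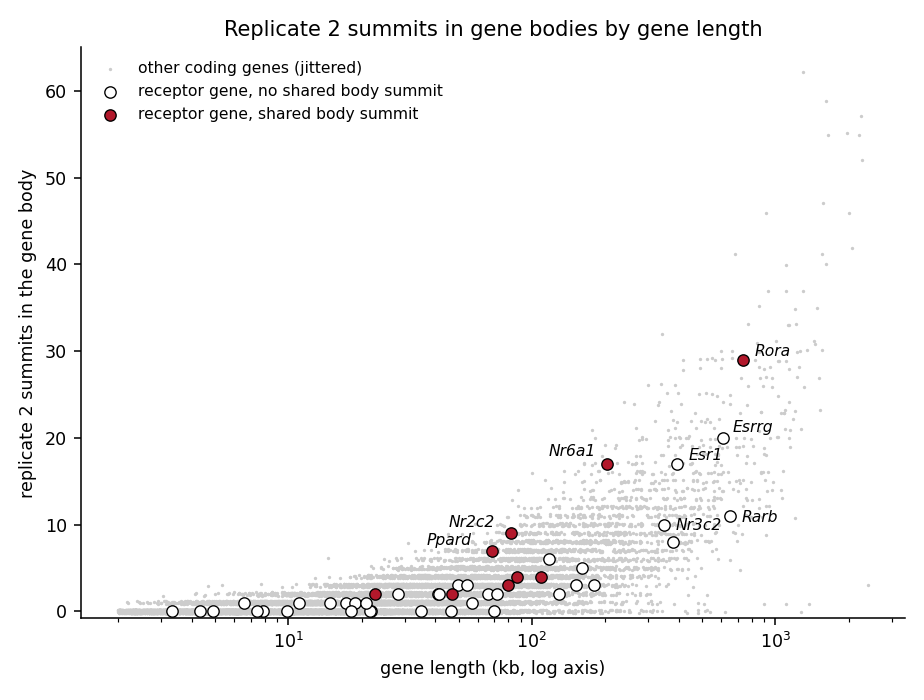
Number of replicate 2 summits in the gene body (y axis) against gene length (x axis, kb, log scale) for coding genes long enough to have a body (grey, with vertical jitter) and the 45 nuclear receptor genes (circles, red where a shared body summit was found). Rora holds 29 and Esrrg 20 at lengths of 734.8 and 606.4 kb, and only Rora of the pair has shared ones.

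A further 4 lists of genes that work with the receptors were counted the same way. Of 22 coregulator genes, 4 had a shared end summit (18.2%), 6 a shared body summit (27.3%) and 15 one within 20 kb (68.2%). The strongest was at Ncoa4, which encodes a receptor coactivator that also carries ferritin to autophagy, 307 bp outside the gene with scores of 136.6 and 145.4. Tbl1xr1, a subunit of the NCoR corepressor complex, had a body summit of 38.3 and 64.1, and Ncoa2, a p160 coactivator, one of 32.8 and 34.7. Of 15 genes for chaperones of steroid receptors, 6 had an end summit (40%), 3 a body summit (20%) and 10 one within 20 kb (66.7%). These included Hspa4 (42.3 and 73.6), Hsp90ab1 (39.6 and 78.5) and Cdc37 (24.8 and 40.4), all at an end. The shares over all coding genes were 8.56% at an end, 12.4% in the body and 32.7% within 20 kb, with gene length not taken into account, and both lists were above all 3. The lists were made with earlier results of these data known, the Ncoa4 score among them. The chaperone body share also rests on 3 genes, so nothing is read from these differences.

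Of 18 retinoid metabolism genes, 2 had an end summit (11.1%), 3 a body summit (16.7%) and 6 one within 20 kb (33.3%). Dhrs3, a retinal reductase gene, had an end summit at 2 bp from its end with scores of 7.34 and 45.9. Dhrs4 (5.56 and 11.2, at an end) and Rdh13 (7.43 and 9.21, in the body) followed. Of 18 circadian clock genes, the partners of the Rev-erb and ROR factors, 2 had an end summit (11.1%), 1 a body summit (5.56%) and 6 one within 20 kb (33.3%). The strongest were at Per1 (22.5 and 19.7, in the body), Cry1 (11.2 and 25.5, at an end) and Dbp (10.7 and 10.4, at an end). Within 20 kb both lists lay near the 32.7% of coding genes. The shares over all coding genes were 8.56% at an end and 12.4% in the body. With only 1 to 3 genes behind each end or body share of these 2 lists, nothing is read from the differences.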

How the data were processed

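KAP1 ChIP-seq summits of 2 samples were used, and the 2 inputs were not analysed here. Per the labels' protocols, sonicated chromatin was made into libraries with fragments of 150 to 400 bp. Bowtie2 2.2.9, Picard 2.1.1, MACS2 2.2.1 and the build mm10 are named in the submitters' processing notes. The peak caller's settings, control and threshold were not given in the sources used here. The deposited lists, 1 per sample and not pooled, give each summit a −log10 score and leave unsaid whether it comes from p or q. Depth is not recorded, so the precision it gives is unknown.

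From these, summits were paired within 200 bp and placed against genes of the RefSeq GRCm38.p6 table, by their outermost coordinates. The body excludes 1 kb at both ends, and 19304 coding genes had one. Strand and starts came from the RefSeq promoter table, which has an entry for 17492 coding genes. No sequence was used beyond that table. A further set of genes is not reported here. Genes and summits are not replicates and there is 1 group, so no test was made. Counts are set beside the same counts over all coding genes. Members, subfamilies and lists were chosen with earlier results of these data known.

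Named genes were, by rule, all members with a shared summit at an end or in the body and those with one within 20 kb. The rule also took the 3 highest replicate 2 end scores without a shared one, and up to 3 genes of each list. The other members were given by name. Replicate 2 values of some of them, such as Rarb, Thrb, Rorb, Pparg and Nr4a2, were given outside this rule. Alternatives were shared distances of 50 and 500 bp, scores at or above the median, replicate 2 reduced to the 8862 highest scores, each list alone, end windows of 500 and 2500 bp and neighbourhoods of 10 and 50 kb. A count of summits whose nearest coding gene end is the member's own was added after seeing the data. The code, in Python 3.11.15 with pandas 2.3.3 and numpy 2.4.6, was tested on simulated data.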

Additional observations from a re-analysis of the deposited data

How the results depend on the processing

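The counts of receptor genes depended most on which list was used. Using 1 replicate alone, the number with an end summit ranged from 5 to 14, with a body summit from 9 to 33, and with a summit within 20 kb from 21 to 45, the upper values being those of replicate 2. With scores at or above the medians, 5 genes had a shared body summit. With replicate 2 reduced to as many summits as replicate 1 has, 12 had a shared summit within 20 kb. With an end window of 500 bp, 2 had a shared end summit, Nr2c1 and Nr1h3, since those of Rara and Ppard lie at 620 and 607 bp. The Rara end summit stood at percentile 99.9 of shared summits by both scores, at 99.9 by the replicate 1 score and at 99.42 by the replicate 2 score. Counting only summits whose nearest coding gene end is the member's own, an alternative added after seeing the data, 3 genes had an end summit, 8 a body summit and 15 one within 20 kb. Shares over all coding genes are not given for this rule or for the 500 bp end window. These counts therefore cannot be set against the shares given for the main rule. Of 29 alternative values, 7 are the counts of 14, 33, 45, 5, 12 and 2 and the percentile of 99.42 above. The other 22 were counts within 1.5 times the reported one, or the unchanged Rara percentile. Depth is unknown, so an absent summit in replicate 1 is not evidence of absent binding.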
